A study of Homo sapiens with 14 samples.

Results

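The sgRNAs described here were the stop guides of *MYB* and *TGFB1*, namely those whose name before the first hyphen, in upper case, was MYB or TGFB1. They were 9 of the 9077 sgRNAs in each of the screens, with 5 guides for *MYB* and 4 for *TGFB1*. The library also held 1000 non-targeting (NT) sgRNAs, 7999 sgRNAs aimed at sites of the RNA modification m6A, and small sets of control sgRNAs aimed at genes. sgRNA abundance was read by amplicon sequencing of genomic DNA in a proliferation screen and in a differentiation screen.

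The proliferation screen used A549, a human lung carcinoma line, in which all cells carried the cytosine base editor FNLS-BE3 from a lentivirus. Its groups differed only in the day of collection, with 1 library of day 0 and 2 libraries of each of days 10, 20 and 30. The differentiation screen used H1, a human embryonic stem cell line, whose cells in every group had received FNLS-ABE7.10(AW), an adenine base editor. Its cells were driven toward definitive endoderm for 3 days with activin A, joined by CHIR99021 at the start only. Cells with the lowest or the highest level of the surface protein CXCR4 were then sorted as CXCR4- and CXCR4+ cells. There was 1 library of each population in each of 3 screens. Both editors came from a lentivirus and the cells were selected with puromycin, with no step of cloning named in the methods before the sgRNA library was added. The files show neither the editing at any target nor the RNA or protein of *MYB* or *TGFB1*.

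*MYB* encodes a DNA-binding transcription factor that keeps blood progenitors dividing and is an oncogene in leukaemia. *TGFB1* encodes a secreted cytokine that is cleaved from a latent precursor and signals through serine/threonine kinase receptors to SMAD proteins. It restrains the growth of many epithelial cells, and, being secreted, it can reach a cell from its neighbours in a pooled culture. The TGF-beta superfamily also includes Nodal and activin A, which induce endoderm from pluripotent cells.

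A cytosine editor turns C into T in a short window of the target, so that a glutamine codon CAA or CAG, an arginine codon CGA or, through the opposite strand, a tryptophan codon TGG becomes a stop codon. The places where such an edit could be made were read from the reference genome, because the sequences of the library's own guides were not used here. *MYB* (GRCh37 chr6:135502446-135540311, plus strand) has 16 exons in the chosen transcript and encodes 761 residues. It holds 61 codons of these kinds, and 16 of them, between residues 3 and 729, could be brought to target positions 4 to 8 beside an NGG PAM, at 18 sites. *TGFB1* (GRCh37 chr19:41807492-41859827, minus strand) has 7 exons in the chosen transcript and encodes 390 residues. It holds 25 such codons, and 9 of them, between residues 65 and 330, could be reached at 12 sites. The site nearest the start codon is shown for each gene, to make plain what a stop edit is, with the codon in capitals and the PAM as the last 3 bases. They are reference sequence, and whether the library held a guide to either was not determined. The *MYB* site lies in exon 1 at chr6:135502653-135502675 on the plus strand and the *TGFB1* site at chr19:41858738-41858760 on the minus strand, both in GRCh37 and inside the coding sequence.
MYB residue 3: tggccCGAagaccccggcacagg
TGFB1 residue 65: agcCAGggggaggtgccgcccgg

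The editor of the H1 screen does not make these stop codons. When every A in the same window of the possible sites was changed to G, 17 of the 18 *MYB* sites gave an amino acid change, 1 gave none and 0 gave a stop codon. Of the 12 *TGFB1* sites, 10 gave an amino acid change, 1 gave none, 1 had no A in the window and 0 gave a stop codon. These counts of 0 were fixed in advance, because an A to G change on either strand makes no stop codon out of another codon. By design the same 9 guides were therefore a test of stop codons in A549 and not in H1.

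All values are normalized counts, in which the read count of an sgRNA is multiplied by a factor of its library. The tables hold no raw counts, so the reads were estimated from the values, which were whole multiples of 1 step in each library within 0.05 reads. A second check of this recovery did not pass, so no count test was run on these reads. By this estimate the A549 libraries held 14925937 to 16457222 reads and the H1 libraries 8076271 to 11341078. Each of the 9 guides had an estimated 814 to 3802 reads in every A549 library and 563 to 2427 in every H1 library, so that none was near 0. With that many reads, if the estimate holds, counting error alone gave a 95% interval of at most 0.12 on either side of a log2 fold change (LFC) at day 30 in A549. That interval covers counting error alone, because amplified reads without molecular identifiers cannot be told from copies of 1 molecule.

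In A549 no guide of either gene was depleted or enriched past a threshold at day 30. An sgRNA counted as changed when its mean LFC over day 0 in both day 30 libraries was beyond 1 in size. Of the 9 guides 0 passed, beside 2.23% of all sgRNAs and 2.00% of the NT sgRNAs. The mean LFCs of the guides lay between -0.32 and 0.54. Their medians were 0.08 for *MYB* and 0.20 for *TGFB1*, next to 0.02 for the NT sgRNAs and 0.00 for all sgRNAs. For comparison, the 4 stop guides of *MYC*, a transcription factor of cell growth, had a median of -3.70.

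MYB-1 began at 2529 normalized counts on day 0, stood at 2491 and 2347 in replicates 1 and 2 of day 10 and at 2354 and 2055 on day 20, and ended at 2753 and 2442 on day 30. Its day 30 libraries lay on either side of day 0, with a mean LFC of 0.04 ± 0.12 (SD, n = 2). MYB-2 went from 1734 on day 0 to 2279 and 2258 on day 10, 2336 and 1838 on day 20, and 2013 and 2663 on day 30. All 6 later libraries were above day 0, and the mean LFC at day 30 was 0.42 ± 0.29 (SD, n = 2).

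MYB-3, the rarest of the 9 guides on day 0 at 1188 normalized counts, stood at 1432 and 1316 on day 10, 1484 and 1505 on day 20, and 1264 and 2348 on day 30. It too was above day 0 in all 6 later libraries, but nearly all of its day 30 mean of 0.54 ± 0.63 (SD, n = 2) came from replicate 2, which was at 0.98 against 0.09 in replicate 1. That 0.98 was above the middle 95% of the NT sgRNAs in the same library, which ended at 0.89.

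MYB-4 had 1917 normalized counts on day 0, 1532 and 1733 on day 10, 2025 and 1673 on day 20, and 2416 and 1704 on day 30. Day 0 lay between the replicates on days 20 and 30, and the mean LFC at day 30 was 0.08 ± 0.36 (SD, n = 2). MYB-5 had 1403 on day 0, 1339 and 1283 on day 10, 1304 and 861 on day 20, and 1853 and 819.7 on day 30. Its replicates moved apart, to LFCs of 0.40 and -0.77 at day 30, with a mean of -0.19 ± 0.83 (SD, n = 2).

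TGFB1-1 had 1521 normalized counts on day 0, 1995 and 1353 on day 10, 2053 and 1348 on day 20, and 2657 and 1539 on day 30. Replicate 1 was above day 0 on each day, whereas replicate 2 was below it on days 10 and 20 and close to it on day 30, for a mean LFC of 0.41 ± 0.56 (SD, n = 2). TGFB1-2 had 2584 on day 0, 2835 and 3399.5 on day 10, 2838 and 3215 on day 20, and 3239 and 3829 on day 30. It was above day 0 in all 6 later libraries, with LFCs of 0.33 and 0.57 at day 30 and a mean of 0.45 ± 0.17 (SD, n = 2).

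TGFB1-3 had 2833 normalized counts on day 0, 3120.1 and 2968 on day 10, 3165 and 3142 on day 20, and 3059.7 and 2614 on day 30. Its libraries were slightly above day 0 until day 20 and on either side of it at day 30, with a mean LFC of -0.0025 ± 0.16 (SD, n = 2). TGFB1-4 had 1271 on day 0, 1404 and 1126 on day 10, 1519 and 1193 on day 20, and 1011 and 1020.1 on day 30. Both of its day 30 libraries were below day 0 by nearly the same amount, and the mean LFC was -0.32 ± 0.01 (SD, n = 2), the lowest of the 9 guides.

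Each guide was then placed among the 1000 NT sgRNAs, which have no target and show how far an sgRNA drifted in this culture. In the day 30 libraries the middle 95% of the NT sgRNAs ran from -0.96 to 0.88 in replicate 1 and from -0.96 to 0.89 in replicate 2, having been -0.48 to 0.54 and -0.49 to 0.52 on day 10. Of the 9 guides 0 lay outside these limits on 1 side in both day 30 libraries, beside 1.31% of all sgRNAs. Of the 54 values of the guides in the 6 later libraries, 2 were outside the limits of their library, which is 3.70%, beside 5.91% of the values of all sgRNAs. One was MYB-3 in replicate 2 of day 30, given above, and the other was MYB-5 in replicate 2 of day 20, at -0.70 against a lower limit of -0.69.

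By the mean of the day 30 libraries MYB-3 stood at percentile 91.4 of the NT sgRNAs, TGFB1-2 at 87.0, MYB-2 at 85.0 and TGFB1-1 at 84.6. MYB-4, MYB-1 and TGFB1-3 were near the middle, at percentiles 56.2, 51.5 and 48.5. MYB-5 at 28.6 and TGFB1-4 at 19.0 were the lowest. Neighbours in this order did not differ beyond the spread between their replicates.

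Guides of 1 gene lay on the same side of day 0 in some libraries and not in others. All 5 *MYB* guides were above day 0 in replicate 1 of day 30, against 2 of 5 in replicate 2. All 4 *TGFB1* guides were above it in replicate 1 of days 10 and 20, against 2 of 4 in replicate 2 of each day. In every later library 50.2% to 50.9% of all sgRNAs were above day 0. The day 30 means of the *MYB* guides had an SD of 0.30 over the guides and those of the *TGFB1* guides 0.37, next to 0.41 over the NT sgRNAs. The LFC had the same sign in both day 30 libraries for 5 of the 9 guides, beside 64.0% of all sgRNAs, and in all 6 later libraries for 3 guides, MYB-2, MYB-3 and TGFB1-2, beside 35.0%. Both shares were near those of the whole library.

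The guides differed between the replicates of a day. In replicate 1, 6, 7 and 8 of the 9 guides were above day 0 on days 10, 20 and 30, and in replicate 2 it was 4 of 9 on each day. Among the NT sgRNAs the share above day 0 was between 51.7% and 55.2% in every later library. Among all sgRNAs it was between 50.2% and 50.9%. The gap between the LFCs of replicates 1 and 2 grew for MYB-5 from 0.06 on day 10 to 0.60 on day 20 and 1.18 on day 30, the last being larger than the gaps of 98.1% of the NT sgRNAs. TGFB1-1 had gaps of 0.56, 0.61 and 0.79 in the same order of days, and those of the first days were larger than the gaps of 96.9% and 95.5% of the NT sgRNAs. MYB-3 showed its gap only on day 30, at -0.89 after 0.12 and -0.02. For 8 of the 9 guides the gap at day 30 was larger than counting error allowed at 95%, TGFB1-4 being the other, beside 83.8% of all sgRNAs.

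limma, fitted over all 7 A549 libraries, was used to ask how large a change each guide could have. At an adjusted p under 0.05 for day 30 over day 0, 0 of the 9 guides passed, beside 0.011% of all sgRNAs, and the adjusted p of the guides ran from 0.377 to 0.997. That share is 1 of 9077 sgRNAs, although 202 had a mean day 30 LFC beyond 1 in size. Not passing this test therefore says little about a guide. At an unadjusted p under 0.05, 1 of the 9 guides passed, beside 13.0% of all sgRNAs. That guide was TGFB1-2, for which limma gave an adjusted p of 0.377 and a 95% interval of the LFC from 0.01 to 0.89. The intervals of the other 8 guides held 0.

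The A549 intervals set bounds on what was missed only if the libraries were independent and equally spread on every day, as the fit assumed. Over all sgRNAs, the differences between the replicates went together from day to day, with r between 0.39 and 0.64. The fit did not model this. Nor were the days alike in spread, as the SD of the NT LFCs was 0.27 and 0.26 in the day 10 libraries. On day 30 it was 0.47 and 0.48, so intervals that share 1 spread over the days can be too narrow there. For 6 of the 9 guides the whole 95% interval of the day 30 LFC lay between -1 and 1, as for MYB-1 from -0.39 to 0.47, for TGFB1-3 from -0.39 to 0.38 and for TGFB1-4 from -0.95 to 0.31. The exceptions were the guides with the largest gaps between their replicates at day 30. MYB-3 had an interval from -0.26 to 1.33, MYB-5 from -1.25 to 0.87 and TGFB1-1 from -0.50 to 1.32. Day 0 had 1 library, so its spread was taken to be that of the other days, and the p values measure only the spread between these libraries. The study describes the replicates of the A549 time course as biologically independent.

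Day 30 over day 10, with 2 libraries on each side, gave the same count without the lone day 0 library. By limma 0 of the 9 guides passed at an adjusted p under 0.05, beside 0% of all sgRNAs, and 0 of 9 passed at an unadjusted p under 0.05, beside 10.8% of all sgRNAs. No sgRNA of any kind passed the adjusted threshold, so it says little about these guides. The differences ran from -0.31 for TGFB1-4, with an interval from -0.82 to 0.21, to 0.33 for MYB-3, with an interval from -0.32 to 0.98. On days 10 and 20 over day 0 the adjusted p of all 9 guides was above 0.99, and 0 of the 9 had an unadjusted p under 0.05 in limma, beside 1.4% and 2.79% of all sgRNAs.

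Among the 15 other gene targets with 3 or more guides, the pattern nearest to *MYB* over the 6 later libraries was that of *TGFB1*. The distance between the mean LFCs of their guides was 0.29 (Euclidean, over 6 libraries), followed by *CDK8*, a kinase of the Mediator complex, at 0.35 and *AKT1*, a kinase of growth factor signalling, at 0.40. For *TGFB1* the order was *MYB* at 0.29, *CDK8* at 0.50 and *AKT1* at 0.54. The farthest target lay at 6.62 from *MYB* and 6.72 from *TGFB1*. The means themselves lay at distances of 0.33 for *MYB* and 0.40 for *TGFB1* from the level of day 0, and at 0.31 and 0.35 from the mean of the NT sgRNAs. Targets that stay near the level of day 0 lie close to each other by construction, and all share the day 0 library, so the order of the nearest is a description only. The 4 sgRNAs against the puromycin resistance gene, which the editor's vector carries, had day 30 means between 0.07 and 0.44, and the 3 sgRNAs against the *AAVS1* safe harbour between -0.83 and 0.03.

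In the H1 screen the question was whether cells carrying a guide were enriched in CXCR4-, the cells that did not reach endoderm, or in CXCR4+. No guide of either gene passed. The thresholds were a median LFC (CXCR4+ over CXCR4-) beyond 0.58 in size over the 3 screens together with a one-sided p under 0.05 in limma. Of the 9 guides 0 passed, beside 3.78% of the 9044 sgRNAs tested and 3.51% of the NT sgRNAs. The medians ran from -0.51 for TGFB1-4 to 0.24 for TGFB1-2. The SD given beside a median below is that of the 3 LFCs about their mean, not about the median.

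MYB-1 had 1541, 1473 and 1375 normalized counts in the CXCR4- libraries of screens 1 to 3 and 1082, 1591 and 985 in the CXCR4+ libraries. It was lower in CXCR4+ in screens 1 and 3 and higher in screen 2, with a median LFC of -0.48 ± 0.35 (SD, n = 3). MYB-2 had 1492, 1185 and 971 in CXCR4- and 1022, 1365 and 1132 in CXCR4+. It went the same way as MYB-1 in screens 1 and 2 and the other way in screen 3, with a median of 0.20 ± 0.44 (SD, n = 3) and a mean of the opposite sign, -0.04.

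MYB-3 had 828, 1251 and 603 normalized counts in CXCR4- and 786, 733 and 695 in CXCR4+. Screen 2 set it apart, at an LFC of -0.77 against -0.07 and 0.20, and the median was -0.07 ± 0.50 (SD, n = 3). MYB-4 had 1593, 1315 and 1415 in CXCR4- and 1554, 1389 and 1813 in CXCR4+, with a median of 0.08 ± 0.20 (SD, n = 3). MYB-5 had 1017, 969 and 731 in CXCR4- and 1122, 1003 and 745 in CXCR4+. It was the steadiest guide, at 0.14, 0.05 and 0.03, and the only *MYB* guide with the same sign in the 3 screens.

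TGFB1-1 had 1017, 1138 and 1387 normalized counts in CXCR4- and 1259, 1135 and 1151 in CXCR4+. Its LFC passed from 0.31 in screen 1 through -0.0043 in screen 2 to -0.27 in screen 3. TGFB1-2, like MYB-2 and MYB-3, was above day 0 throughout in A549. In H1 TGFB1-2 had 1611, 2080.3 and 1460.4 in CXCR4- and 1918, 1771 and 1730.2 in CXCR4+, with a median LFC of 0.24 ± 0.28 (SD, n = 3). It was higher in CXCR4+ in screens 1 and 3 and lower in screen 2.

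TGFB1-3 had 1857, 1892 and 2003 normalized counts in CXCR4- and 1758, 1797 and 1460.2 in CXCR4+. All of its CXCR4- libraries were above all of its CXCR4+ libraries, and the median LFC was -0.08 ± 0.22 (SD, n = 3). TGFB1-4 had 1286, 871 and 1002 in CXCR4- and 902, 942 and 598 in CXCR4+. Its populations overlapped through screen 2, where the LFC was 0.11 against -0.51 and -0.74 in the others, and the median was -0.51 ± 0.44 (SD, n = 3).

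TGFB1-3 was the 1 guide of 9 whose populations did not overlap, beside 8.88% of all sgRNAs tested, and its 95% interval in limma, from -0.62 to 0.21, held 0. The LFC had the same sign in the 3 screens for 2 of the 9 guides, MYB-5 and TGFB1-3, beside 25.0% of all sgRNAs. Neither count stood away from the whole library.

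Against the NT sgRNAs, whose median LFC lay between -0.65 and 0.58 for the middle 95%, 0 of the 9 guides were outside, beside 6.26% of all sgRNAs. The lowest were TGFB1-4 at percentile 5.92 of the NT sgRNAs and MYB-1 at 6.82, and the highest was TGFB1-2 at 78.6. In single screens the NT limits were -0.83 to 0.85, -1.09 to 1.21 and -0.94 to 0.84, and 0 of the 27 values of the guides were outside them, beside 5.95% of the values of all sgRNAs tested.

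By limma 0 of the 9 guides passed at an adjusted p under 0.05, beside 0% of all sgRNAs tested, and 0 of 9 passed at an unadjusted p under 0.05, beside 3.76% of all sgRNAs tested. As no sgRNA of the H1 screen passed the adjusted threshold, not passing it says little about a guide. limma estimates the mean LFC over the screens, which ran from -0.38 for TGFB1-4 to 0.13 for MYB-4 and had the sign of the median for all guides but MYB-2 and TGFB1-1. The 95% intervals of all 9 guides lay between -1 and 1 and held 0. They were widest for MYB-3, from -0.84 to 0.42, and narrowest for TGFB1-3. The interval of TGFB1-4 reached from -0.96 to 0.20 and that of MYB-1 from -0.78 to 0.20, so the data allow a lower level of these guides in CXCR4+ of up to that size.

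The gene medians moved with the screen. That of *MYB* was -0.07, 0.08 and 0.20 in screens 1 to 3, with a median over the guides of 0.05. That of *TGFB1* was 0.09, -0.04 and -0.36, with a median of -0.04. Of the 9 guides 3 were higher in CXCR4+ in screen 1 and 5 in each of screens 2 and 3. Among all sgRNAs tested the share was 49.6%, 49.6% and 50.1% in screens 1 to 3. The control sgRNAs gave medians of 0.04 for *AAVS1*, 0.14 for the puromycin resistance gene and 0.00 for *MYC*, next to 0.00 for all sgRNAs.

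Set side by side, TGFB1-4 had the lowest LFC of the 9 guides in both screens, at -0.32 at day 30 in A549 and -0.51 in H1. TGFB1-2 and MYB-2 stood at percentiles 87.0 and 85.0 of the NT sgRNAs in A549 and, by the median LFC, at 78.6 and 75.5 in H1. For MYB-2 the H1 position held only by the median, as its mean LFC there was -0.04 and its screen 1 LFC -0.55. MYB-3 was highest in A549 and below the middle of the NT sgRNAs in H1, at percentile 42.7, and MYB-1 was in the middle in A549 and low in H1. The screens used different editors and cell types, so a guide that went the same way in both was not a repeat of 1 measurement.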

How the data were processed

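sgRNA libraries of the A549 proliferation screen (7) and of the sorted H1 populations (6) were analysed. The authors removed adapters with Cutadapt and used MAGeCK to obtain normalized counts of each sgRNA. CASAVA 1.4 is also named in the submitters' processing notes. The versions of Cutadapt and MAGeCK are not given in the sources. The deposited tables hold 1 signal per sgRNA, its read count times a library factor. Reads were estimated as whole multiples of that factor. An H1 library of day 0 was not analysed here.

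LFCs were taken after a pseudocount of 1. In H1, 33 sgRNAs were left out because their mean was under 200 in CXCR4- or CXCR4+ cells. limma 3.58.1 in R 4.3.3, with a variance trend, was fitted over all sgRNAs, with Benjamini-Hochberg adjustment over all tested, after tests on simulated data. Tables were handled with pandas 2.3.3, numpy 2.4.6 and scipy 1.17.1 in Python 3.11.15. Both populations of each H1 screen were sorted from 1 infected culture, which pairs them by screen number. The main limma fit did not use this pairing, so its H1 intervals and p values take the libraries as independent. Over the sgRNAs, the correlations of their deviations from the mean of each population were 0.08, 0.06 and 0.29 within screens 1 to 3. Between populations of different screens they ran from -0.18 to 0.11.

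The members, tests and comparison lists were chosen with earlier results of these data known. All *MYB* and *TGFB1* guides were named, and for each gene the 3 nearest targets by distance. Possible sites came from the GRCh37 genome and GENCODE transcripts. Other pseudocounts, scalings, filters, blocks and left-out libraries were tried. Results of some other sgRNAs are not reported here.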

Additional observations from a re-analysis of the deposited data

How the results depend on the processing

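No alternative took a *MYB* or *TGFB1* guide past the LFC threshold of 1 in A549 or past an adjusted p under 0.05 in limma in either screen, and the lowest adjusted p of a guide was 0.0703 in A549 and 0.899 in H1. With a replicate block, which in A549 was random (correlation 0.379) or, added after seeing the data, fixed, the counts of guides called stayed at 0, as they did with the screen as a block in H1. In A549 the differences between replicates 1 and 2 went together over all sgRNAs, with r = 0.57 for day 10 with day 20, r = 0.64 for day 20 with day 30 and r = 0.39 for day 10 with day 30. The counts that moved did so when 1 library or screen was left out. Without replicate 1 of day 30, 1 guide, MYB-3, was outside the NT limits, at 0.98 against 0.89 (adjusted p = 0.0703), and without replicate 2 it was 0. Without replicate 2 of the H1 screen, 1 guide, TGFB1-4, passed the H1 thresholds, with a median LFC of -0.63. That value was also outside the NT limits, of which the lower was -0.62. Without replicate 1 or 3 both counts were 0. Of all sgRNAs, 6.07% were outside the NT limits without replicate 1 of day 30 in A549. Without replicate 2 in H1, 4.68% passed the thresholds and 530 sgRNAs were outside the NT limits. The sign of the LFC changed under at least 1 alternative for MYB-1, MYB-4, MYB-5 and TGFB1-3 in A549 and for MYB-2, MYB-3 and TGFB1-1 in H1. Scaling the A549 libraries to the same total or the same NT median lowered the day 30 LFC of each of the 9 guides alike, by a shift of -0.05, which took TGFB1-4 from -0.32 to -0.37 and MYB-1 from 0.04 to -0.01. Over all sgRNAs, the limma calls for day 30 over day 0 went from 1 to 176 with the fixed block and to 152 with a linear trend over days, of which 25 and 16 were NT sgRNAs. The sgRNAs beyond an LFC of 1 went from 202 to 413 and 426 without replicate 1 and 2 of day 30. Those past the H1 thresholds went from 342 to 535, 423 and 725 without replicates 1, 2 and 3. edgeR and DESeq2, planned for the case that whole reads could be recovered, were not run, because the recovery did not pass a second check, so reads and depth are estimates.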
